A study of Homo sapiens with 12 samples.

Results

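FAT1, FAT2, FAT3, FAT4, DCHS1, CELSR1, CELSR2 and CELSR3 encode the giant cadherins, and their transcripts were followed by RNA-seq in 4 lines of HEK293T, a human embryonic kidney line that carries the SV40 large T antigen. The genes were taken by symbol from the deposited count table, and 8 of 8 were among its 14438 genes. The set was chosen by gene family with the log2 fold changes of the EZH2 mutants in these same samples already known, so its values are given as a description, and the number of its genes past a threshold supports nothing by itself. Each line had been infected with lentivirus carrying a form of EZH2, the H3K27 methyltransferase of Polycomb repressive complex 2, and selected with blasticidin. The introduced form was wild type (EZH2 WT), a gain-of-function (GOF) mutant with a single substitution, EZH2 Y641F or EZH2 A677G, or the loss-of-function (LOF) double mutant EZH2 H689A/F667I, with 3 replicates a line and 12 samples in all.

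In every line the cells' own EZH2 gene was left in place, so the mutants were expressed beside the endogenous enzyme and EZH2 WT is itself a line with introduced EZH2. A line is a single selected population, so an effect of the mutation cannot be told apart from a feature of that population, and the p-values measure the spread between samples of these lines. In bulk RNA, fewer cells that use a gene and less RNA per cell also cannot be told apart.

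Total counts ranged from 32137700 to 44562413 a sample. Levels are given in CPM, the counts scaled to a common library size with TMM factors. A fold change is called when the quasi-likelihood test of edgeR gave it a Benjamini-Hochberg adjusted p below 0.05 over the 14263 genes tested. The targeted gene had 158 ± 4.32 CPM in the EZH2 WT line, 218 ± 9.61 in the EZH2 Y641F line, 173 ± 8.57 in the EZH2 A677G line and 208 ± 2.03 in the EZH2 H689A/F667I line (mean ± SD, n = 3), and these counts do not separate introduced from endogenous EZH2. Of 6 HEK293 marker genes, the 5 tested (NEFL, NEFM, VIM, KRT8 and KRT18) summed to between 434 and 638 CPM a sample. The EZH2 WT samples were the highest (612 to 638), the EZH2 H689A/F667I samples came next (561 to 566) and the GOF samples were the lowest (434 to 519). NEFL and NEFM were called lower against EZH2 WT in each mutant line, the LOF line included, and VIM in the EZH2 Y641F line alone. The kidney marker PAX2, at 0 to 25 counts, was not among the genes tested and is not in the sum. Of the markers of other cell types, 8 had no entry in the table, and the fibroblast genes COL1A1 and LUM had 198 to 409 and 34 to 136 counts a sample. Replicate 1 of EZH2 Y641F stood apart from replicates 2 and 3 on the first principal component (5.6 against 17.7 and 17.1) and on the second (-19.2 against 2.25 and -0.785). The first component held 33.7% of the variance, and the EZH2 WT samples lay at -15 to -13.8 on it. Whether the marker genes had a part in the differences below was not tested, and each called member is also given without each sample.

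Fat and Dachsous proteins are among the largest adhesion molecules of the cell surface, with long rows of cadherin repeats outside the membrane. DCHS1 and FAT4 bind each other across neighbouring cells as ligand and receptor, and in the fly the corresponding pair feeds into the Hippo growth pathway and into planar cell polarity, the alignment of cells within a sheet. In the mammalian kidney, FAT4 and DCHS1 are known for their part in the signalling between stroma and nephron progenitors. CELSR1, CELSR2 and CELSR3 are the counterparts of fly Flamingo, join cadherin repeats to a receptor with the membrane-spanning core of adhesion G protein-coupled receptors, and belong with FZD and VANGL proteins to the core of planar cell polarity.

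The genes are spread over 6 chromosomes. In GRCh38, FAT1 spans 186587794 to 186726722 and FAT4 125314918 to 125492932 of chromosome 4, FAT2 lies at 151504092 to 151591331 of chromosome 5, and FAT3 at 92224818 to 92896473 of chromosome 11. DCHS1 is also on chromosome 11, at 6621330 to 6655809. CELSR1 lies at 46360834 to 46537620 of chromosome 22, CELSR2 at 109249539 to 109275751 of chromosome 1 and CELSR3 at 48636463 to 48662886 of chromosome 3. Their coding sequences run from 8.769 kb in CELSR2 to 14.949 kb in FAT4, against a median of 1434 bases over 13019 coding genes of the table, and all 8 are among the 138 longest. FAT1, FAT3 and FAT4 transcripts held 45.5% to 46.3% GC, FAT2 held 53.0%, and DCHS1 and the CELSR transcripts held 61.3% to 62.3%. The processed pseudogene FAM136EP on the strand of CELSR1, 2 microRNA genes on those of FAT2 and CELSR3, a Y RNA on that of FAT4, and several RNAs on opposite strands, among them DCHS1-AS1, overlap these genes in GENCODE and had no entry in the count table.

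RefSeq promoter sequences (GRCh38.p14, 250 bases before to 50 bases after a start) were held for 4 of the 8 genes, FAT1, FAT2, CELSR2 and CELSR3, without FAT3, FAT4, DCHS1 and CELSR1. Those of FAT1 and FAT2 are shown because these genes were the most and the least abundant of the set and lie far apart in CG dinucleotides, which are in capitals.
FAT1 (chr4:186726647-186726946, minus strand): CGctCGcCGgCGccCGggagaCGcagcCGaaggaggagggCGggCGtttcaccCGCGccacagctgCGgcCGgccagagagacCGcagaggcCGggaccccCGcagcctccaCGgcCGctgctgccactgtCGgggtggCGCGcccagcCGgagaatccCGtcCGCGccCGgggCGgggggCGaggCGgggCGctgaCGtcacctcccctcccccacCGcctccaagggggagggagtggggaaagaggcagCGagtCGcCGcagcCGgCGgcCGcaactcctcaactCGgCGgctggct
FAT2 (chr5:151591282-151591581, minus strand): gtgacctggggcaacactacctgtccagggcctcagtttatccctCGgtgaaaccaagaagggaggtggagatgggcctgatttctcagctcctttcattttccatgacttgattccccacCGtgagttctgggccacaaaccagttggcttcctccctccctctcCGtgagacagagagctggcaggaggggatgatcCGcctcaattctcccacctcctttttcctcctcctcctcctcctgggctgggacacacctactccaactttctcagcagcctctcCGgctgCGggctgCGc
The FAT1 promoter held 40 CG dinucleotides, more than 92.4% of 35114 RefSeq promoters of this length, and the FAT2 promoter held 7, more than 36.8%, where the median promoter held 14. A second FAT1 entry held 41, and CELSR2 and CELSR3 held 30 each. GC boxes, searched as GGGCGG and CCGCCC, occurred 2 times in the FAT1 promoter and 0 times in that of FAT2, and 45.0% of all promoters held one.

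Expression of the giant cadherins in the EZH2 WT line spanned a wide range of levels. Divided by transcript length, FAT1, a protocadherin of actin-rich cell edges, was the highest at 11.0 ± 0.197 CPM per kb. CELSR2 (4.08 ± 0.211) and CELSR1 (3.88 ± 0.176) followed, with a difference within their spread, then FAT3 at 2.28 ± 0.0839 and FAT4 at 1.29 ± 0.0705. CELSR3 (0.528 ± 0.0840) and DCHS1 (0.404 ± 0.0517) were low, with replicates from 0.475 to 0.624 and from 0.353 to 0.456 CPM per kb that did not overlap. FAT2 was at 0.0657 ± 0.0121 CPM per kb, with 22 to 44 counts in any sample of the 4 lines, so that only large differences would be detectable. FAT1 thus made up 46.8% of the summed level of the 8 genes in the EZH2 WT line, 48.8% in the EZH2 Y641F line, 48.2% in the EZH2 A677G line and 46.4% in the EZH2 H689A/F667I line. The sum itself stayed between 23.1 ± 1.05 and 23.6 ± 0.519 CPM per kb in the 4 lines, less than the spread between replicates.

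**Figure D1:**
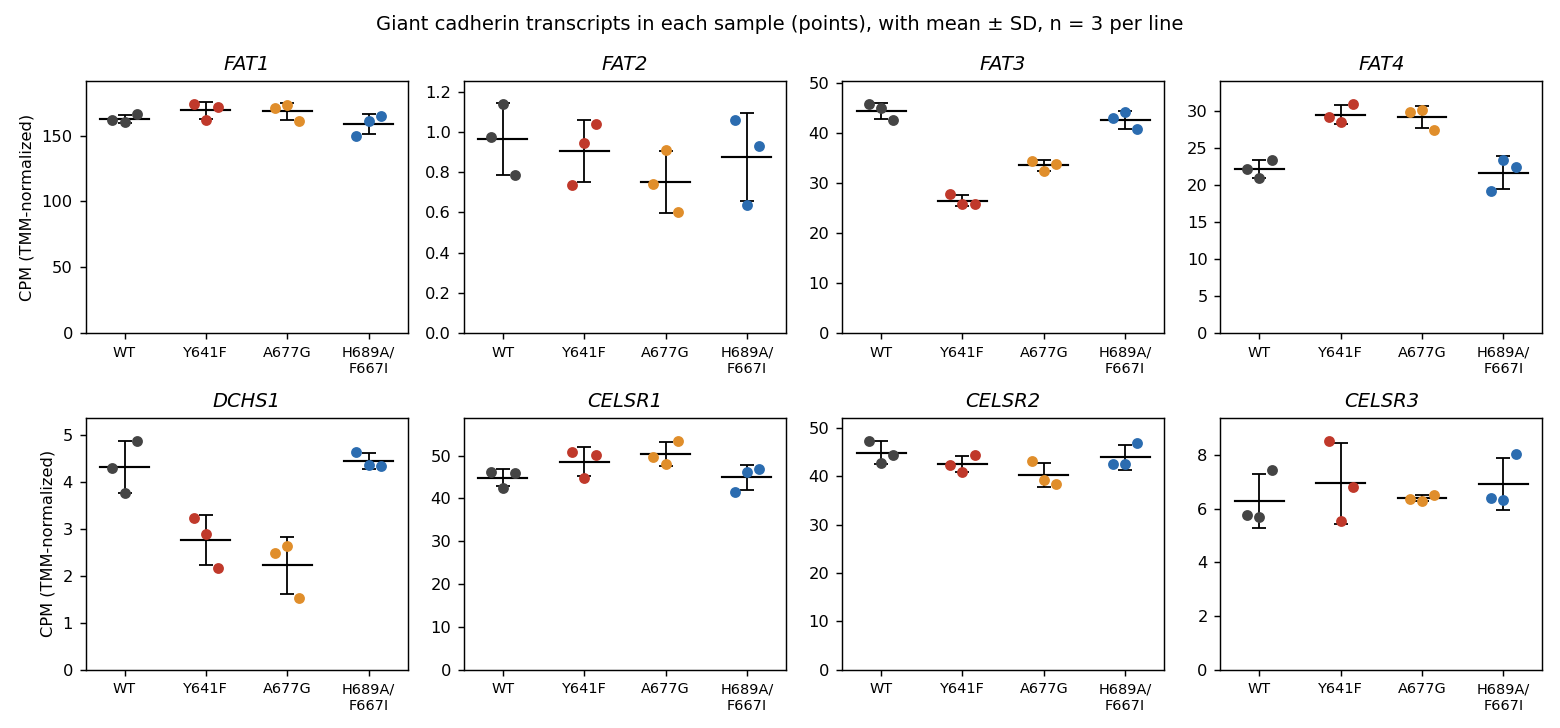
Level of each giant cadherin (CPM after TMM scaling, vertical axis starting at 0, with its own range in each panel) in the 3 samples of each EZH2 line, with points for samples and bars for mean ± SD. FAT3 and DCHS1 points of EZH2 Y641F and EZH2 A677G lie below all points of the other lines, FAT4 points lie above them, and for the other 5 genes the 6 GOF points overlap the 6 others, although the CELSR1 points of EZH2 A677G alone lie above those of EZH2 WT and EZH2 H689A/F667I.

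The lower and higher transcripts of the GOF lines were FAT3, DCHS1 and FAT4. Against EZH2 WT, 2 of the 8 genes were called lower and 1 higher in the EZH2 Y641F line, where 5.59% of all genes tested were lower and 2.09% higher. The same counts were obtained for EZH2 A677G, against 6.48% lower and 2.07% higher over all genes. The 2 comparisons share their EZH2 WT samples, and their results were known when the set was chosen, so nothing is read from the counts. The 8 genes had a median log2 fold change of -0.01 in the EZH2 Y641F line and -0.07 in the EZH2 A677G line, against 0.003 and 0.005 over all genes.

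FAT3, a protocadherin known from the retina and other parts of the nervous system, was lower in both GOF lines. It had 45.8, 44.9 and 42.6 CPM in replicates 1 to 3 of EZH2 WT, 27.8, 25.8 and 25.8 in the EZH2 Y641F line, 34.4, 32.4 and 33.7 in the EZH2 A677G line, and 42.9, 44.2 and 40.7 in the EZH2 H689A/F667I line. The EZH2 Y641F samples were the lowest, the EZH2 A677G samples came next, and neither group overlapped the other or the samples of EZH2 WT and EZH2 H689A/F667I, which overlapped each other. EZH2 Y641F had 59.5% of the EZH2 WT level, a log2 fold change of -0.75 (SE 0.0563, 95% interval -0.86 to -0.63). EZH2 A677G had 75.4%, a log2 fold change of -0.41 (SE 0.0553, -0.52 to -0.29). FAT3 rested on 984 to 1735 counts a sample, and without any 1 sample the values stayed between -0.78 and -0.73 for EZH2 Y641F and between -0.44 and -0.38 for EZH2 A677G.

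FAT4, the receptor for DCHS1, was higher in both GOF lines. The 3 EZH2 WT samples had 22.2, 21.0 and 23.4 CPM, those of EZH2 Y641F 29.2, 28.5 and 31.0, those of EZH2 A677G 29.9, 30.2 and 27.5, and those of EZH2 H689A/F667I 19.2, 23.4 and 22.5. All GOF samples were above all others, and the samples of the 2 GOF lines overlapped. The level in the EZH2 Y641F line was 1.33-fold that in the EZH2 WT line (log2 fold change 0.42, SE 0.0707, 95% interval 0.27 to 0.56), and in the EZH2 A677G line it was 1.32-fold (0.40, SE 0.0707, 0.25 to 0.54). Counts were 709 to 1331 a sample, and leaving out any sample gave log2 fold changes of 0.38 to 0.45 and 0.36 to 0.44.

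DCHS1, the ligand of FAT4, was lower in both GOF lines, on few counts (56 to 172 a sample). It had 4.30, 3.78 and 4.89 CPM in the EZH2 WT line, 3.23, 2.89 and 2.18 in the EZH2 Y641F line, 2.49, 2.65 and 1.54 in the EZH2 A677G line, and 4.65, 4.38 and 4.34 in the EZH2 H689A/F667I line. All GOF samples were below all others, with the third replicate the lowest in both GOF lines. EZH2 A677G had 52.0% of the EZH2 WT level (log2 fold change -0.94, SE 0.186, 95% interval -1.32 to -0.57), and EZH2 Y641F had 64.1% (-0.64, SE 0.182, -1.01 to -0.27). The call in the EZH2 Y641F line was lost without EZH2 WT replicate 1 (-0.64), without EZH2 WT replicate 3 (-0.55) and without EZH2 Y641F replicate 3 (-0.49), whereas the call in the EZH2 A677G line was kept without each sample, at -1.08 to -0.75. DCHS2, its relative, is no member of the set and was looked at after its values were seen. DCHS2 had 2.32 ± 0.308 CPM in the EZH2 WT line, 1.46 ± 0.115 in the EZH2 Y641F line, 1.62 ± 0.355 in the EZH2 A677G line and 2.41 ± 0.243 in the EZH2 H689A/F667I line, from 51 to 92 counts, and was not called in the EZH2 Y641F line (log2 fold change -0.67, adjusted p = 0.0552) or EZH2 A677G (-0.53, adjusted p = 0.143).

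FAT1 and FAT2 were not called in either GOF line. FAT1 had 163 ± 2.91 CPM in the EZH2 WT line, 169 ± 6.27 in the EZH2 Y641F line, 168 ± 6.61 in the EZH2 A677G line and 158 ± 7.79 in the EZH2 H689A/F667I line, and the lines overlapped. Its log2 fold changes, 0.06 (95% interval -0.02 to 0.14) and 0.05 (-0.04 to 0.13) in the GOF lines, leave room for a rise of up to 1.10-fold. FAT2, best known from the cerebellum and squamous epithelium, had 0.966 ± 0.177, 0.908 ± 0.155, 0.751 ± 0.153 and 0.874 ± 0.215 CPM in the same order. Its log2 fold change was -0.10 in the EZH2 Y641F line (-0.71 to 0.52) and -0.36 in the EZH2 A677G line (-0.99 to 0.26), where it had 77.7% of the EZH2 WT level, and these intervals are wide enough to hold the values of DCHS1 in the same lines.

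None of the 3 CELSR genes was called against EZH2 WT by the quasi-likelihood test or by DESeq2, while an unadjusted p under 0.05 was reached by 1 of them in the EZH2 Y641F line, by 2 in the EZH2 A677G line and by 0 in the EZH2 H689A/F667I line. CELSR1, known for the orientation of hair follicles and the closing neural tube, had 46.1, 42.5 and 45.9 CPM in the EZH2 WT line, 50.8, 44.8 and 50.2 in the EZH2 Y641F line, 49.6, 48.0 and 53.5 in the EZH2 A677G line and 41.6, 46.2 and 46.9 in the EZH2 H689A/F667I line. The EZH2 A677G samples were all above those of EZH2 WT and EZH2 H689A/F667I, while an EZH2 Y641F sample fell among them. The log2 fold change was 0.17 in the EZH2 A677G line (95% interval 0.05 to 0.28) and 0.12 in the EZH2 Y641F line (0.00 to 0.23). CELSR2, a paralog expressed in the nervous system, had 47.4, 42.8 and 44.5 CPM in the EZH2 WT line, 42.4, 41.0 and 44.4 in the EZH2 Y641F line, 43.1, 39.2 and 38.4 in the EZH2 A677G line and 42.5, 42.5 and 46.9 in the EZH2 H689A/F667I line, with overlap between all lines. Its log2 fold change was -0.16 in the EZH2 A677G line (-0.27 to -0.04) and -0.08 in the EZH2 Y641F line (-0.19 to 0.04). The EZH2 A677G values of CELSR1 and CELSR2 lay near the threshold, and both passed it with the exact test of edgeR, which is the test in the study's methods. CELSR3, known for guiding axon tracts, had 5.52 to 8.53 CPM over the 12 samples, with overlapping lines and a log2 fold change of 0.15 (-0.13 to 0.43) in the EZH2 Y641F line and 0.02 (-0.26 to 0.31) in the EZH2 A677G line.

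**Figure D2:**
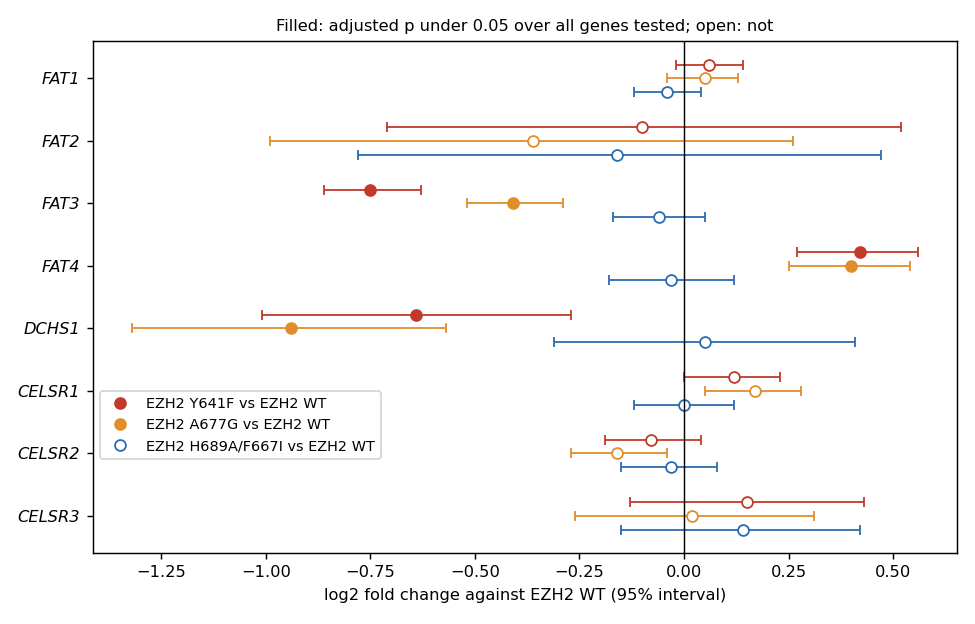
Log2 fold change of each giant cadherin against EZH2 WT (horizontal axis) in the EZH2 H689A/F667I line and in both GOF lines, with 95% intervals and filled points where the adjusted p was under 0.05. FAT3 (-0.75 and -0.41), FAT4 (0.42 and 0.40) and DCHS1 (-0.64 and -0.94) are filled in the GOF lines, and every point of EZH2 H689A/F667I is open.

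With the LOF mutant, none of the 8 genes was called against EZH2 WT by the quasi-likelihood test. DESeq2 and the exact test of edgeR also called 0, and 0 of the 8 had an unadjusted p under 0.05. Few genes were called in that comparison at all, 0.301% of those tested, 23 lower and 20 higher (20 lower and 11 higher when scaled by library totals). FAT3 had a log2 fold change of -0.06 (95% interval -0.17 to 0.05), FAT4 of -0.03 (-0.18 to 0.12) and DCHS1 of 0.05 (-0.31 to 0.41), and over all 8 genes the values ran from -0.16 to 0.14. For FAT3, FAT4 and DCHS1 these intervals do not reach the values of either GOF line. For FAT3 and FAT4 they also do not overlap the intervals of the GOF lines. For DCHS1 the interval overlaps that of EZH2 Y641F (-1.01 to -0.27) and not that of EZH2 A677G.

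Set directly against each other, the 2 GOF lines differed in FAT3. EZH2 Y641F had 79.0% of the level in the EZH2 A677G line (log2 fold change -0.34, SE 0.0569, 95% interval -0.46 to -0.23), and this was the only call among the 8 genes, where 0.0841% of all genes were called. The value stayed between -0.38 and -0.32 in every alternative. EZH2 transcripts were also more abundant in the EZH2 Y641F line (log2 fold change 0.33 against EZH2 A677G), so the mutation and the EZH2 level cannot be told apart in this difference. For FAT4 the difference was 0.02 (-0.12 to 0.16), and for DCHS1 it was 0.30 (-0.09 to 0.69), an interval that does not exclude a difference as large as that of FAT3 in the other direction.

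The mean of both GOF lines was also compared with the LOF line, whose EZH2 level lies between those of the 2 GOF lines. FAT3 (log2 fold change -0.52, SE 0.0478) and DCHS1 (-0.84, SE 0.155) were lower and FAT4 was higher (0.44, SE 0.0624), which makes 2 of 8 lower and 1 of 8 higher, against 8.75% and 3.81% of all genes. Among the others, CELSR1 had 0.14 (0.04 to 0.24) and FAT1 0.09 (0.02 to 0.16), neither called. Counted by samples, all 6 GOF samples lay below all 6 other samples for FAT3 and DCHS1 and above them for FAT4, as they did for 5.41% and 1.74% of all genes tested.

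With FAT4 higher and DCHS1 lower, the ratio of receptor to ligand transcript per kb was larger in the GOF lines. FAT4 to DCHS1 was 3.23, 3.47 and 2.99 in the EZH2 WT line, 5.65, 6.17 and 8.89 in the EZH2 Y641F line, 7.49, 7.11 and 11.2 in the EZH2 A677G line and 2.57, 3.33 and 3.24 in the EZH2 H689A/F667I line. No GOF sample was as low as any sample of the other lines, which follows from the separations of FAT4 and DCHS1 given above and is no further result. The 2 GOF lines overlapped. Among the Fat genes the order of FAT3 and FAT4 per kb of transcript changed. FAT4 to FAT3 was 0.570 ± 0.0491 in the EZH2 WT line, 1.27 ± 0.0860 in the EZH2 Y641F line, 0.992 ± 0.0658 in the EZH2 A677G line and 0.580 ± 0.0639 in the EZH2 H689A/F667I line. FAT3 was thus the more abundant per kb of transcript in the EZH2 WT line and EZH2 H689A/F667I. FAT4 was the more abundant in the EZH2 Y641F line (1.72 against 1.36 CPM per kb). In the EZH2 A677G line the 2 transcripts (1.70 and 1.72) differed by less than the spread between replicates. The order within a line depends on the length used. Transcripts of 19.504 kb for FAT3 and 17.151 kb for FAT4 were taken, of which 13.767 and 14.949 kb are coding. Comparisons of the ratio between lines do not depend on the length chosen.

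**Figure D3:**
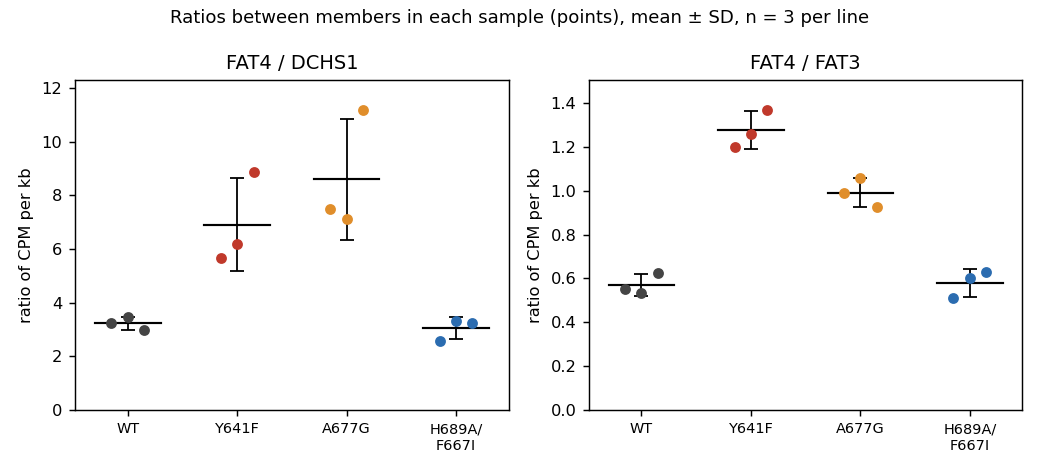
Ratio of FAT4 to DCHS1 (left) and of FAT4 to FAT3 (right), each as CPM per kb of transcript on a vertical axis starting at 0, in the 3 samples of each EZH2 line, with points for samples and bars for mean ± SD. The EZH2 Y641F and EZH2 A677G points lie above all points of EZH2 WT and EZH2 H689A/F667I in both panels, at 5.65 to 11.2 against 2.57 to 3.47 on the left. This separation follows from those of FAT3, FAT4 and DCHS1 taken singly.

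Transcript length was examined because these are among the longest transcripts of the cell. Over 594 other genes with transcripts of at least 10 kb, the median log2 fold change was 0.01 in the EZH2 Y641F line and 0.00 in the EZH2 A677G line. Of these long genes, 11.3% were called lower and 5.05% higher in the EZH2 Y641F line, against 5.59% and 2.09% of all genes tested. In the EZH2 A677G line the shares were 13.1% and 2.86%, against 6.48% and 2.07%. Long genes were thus called more often than all genes, in both directions. Removing a trend of fold change with length or with GC content left FAT3, FAT4 and DCHS1 called, with their directions, in both lines.

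**Figure D4:**
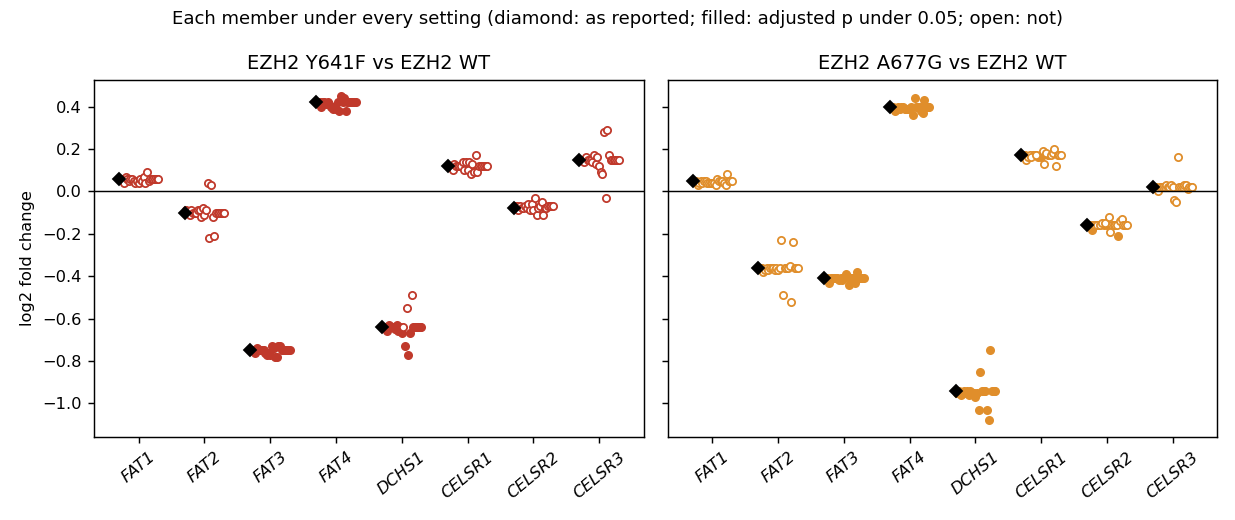
Log2 fold change against EZH2 WT (vertical axis) of each giant cadherin as reported (diamonds) and under every alternative (points, filled where the adjusted p was under 0.05), for EZH2 Y641F (left) and EZH2 A677G (right). FAT3 and FAT4 points are filled throughout, DCHS1 has open points in the EZH2 Y641F line at -0.64, -0.55 and -0.49, and CELSR1 and CELSR2 have both open and filled points in the EZH2 A677G line.

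The genes that work with Fat and Dachsous were called at shares near those of all genes against EZH2 WT. Of 34 listed genes of the Fat/Dachsous and Hippo pathway, 30 were tested, and 1 was lower and 1 higher in each GOF line, or 3.33% each way, against 5.59% lower and 2.09% higher of all genes in the EZH2 Y641F line and 6.48% and 2.07% in the EZH2 A677G line. The list had medians of 0.02 in the EZH2 Y641F line and 0.04 in the EZH2 A677G line, where the median of all genes was 0.003 and 0.005. The lower gene was FJX1 in both lines, the counterpart of the fly kinase Four-jointed, which acts on Fat and Dachsous cadherin repeats. FJX1 had 47.6 ± 2.03 CPM in the EZH2 WT line, 40.3 ± 1.36 in the EZH2 Y641F line (log2 fold change -0.24, SE 0.0525, adjusted p = 0.00199) and 40.6 in the EZH2 A677G line (-0.23, SE 0.0525, adjusted p = 0.00277), and 47.1 ± 1.96 in the EZH2 H689A/F667I line. The higher gene was STK4, a core Hippo kinase, in the EZH2 Y641F line (0.13, adjusted p = 0.0318) and VGLL4, a partner of TEAD factors, in the EZH2 A677G line (0.22, adjusted p = 0.0432). FJX1 kept both calls under every alternative. The STK4 call was lost with the exact test, with upper-quartile factors, with only the compared groups, and without EZH2 WT replicate 1, EZH2 WT replicate 2 or EZH2 Y641F replicate 3. That of VGLL4 was lost with upper-quartile factors, library totals, a minimum of 10 counts in every sample, the length trend removed and the replicate block with either trend removed, and without EZH2 WT replicates 1 or 3, any EZH2 A677G replicate or EZH2 H689A/F667I replicate 2. Against the LOF line, 2 of the 30 were lower in the GOF mean (6.67%, against 8.75% of all genes), FJX1 and DCHS2, and 5 were higher (16.7%, against 3.81%), WWTR1, LATS2, YAP1, FRMD6 and LIX1L, all named here because of that call. These 7 calls fell to 4, with 2 higher, under upper-quartile factors, and to 3, with 2 higher, without EZH2 H689A/F667I replicate 1.

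Of the 28 planar cell polarity genes, all tested, 4 were lower in the EZH2 Y641F line (14.3%, against 5.59% of all genes) and 5 in the EZH2 A677G line (17.9%, against 6.48%), with medians of -0.00 and -0.02. The quasi-likelihood test called 0 of them higher, and the exact test of edgeR called 1 higher in each line. VANGL2, a core membrane protein of the pathway that works with the CELSR proteins, had 31.9 ± 1.63 CPM in the EZH2 WT line, 20.7 ± 2.56 in the EZH2 Y641F line (log2 fold change -0.62, SE 0.0733, adjusted p = 1.54e-07), 21.7 ± 0.436 in the EZH2 A677G line (-0.56, adjusted p = 9.78e-07) and 30.4 ± 2.06 in the EZH2 H689A/F667I line. WNT11, a ligand of the pathway, fell by 0.63 (adjusted p = 0.00275) and 0.76 (adjusted p = 2.76e-04) on the log2 scale, and the WNT receptor ROR1 by 0.46 (adjusted p = 0.00125) and 0.55 (adjusted p = 1.33e-04). DAAM2, a formin, was the other gene called in both lines. PRICKLE2, a cytoplasmic core protein, fell by 0.93 in the EZH2 A677G line (adjusted p = 0.0196), and its value in the EZH2 Y641F line was -0.75 (adjusted p = 0.0718). The count in the EZH2 Y641F line was 7, with 6 lower and 1 higher, without EZH2 Y641F replicate 1. For the GOF mean against the LOF line, 7 of the 28 were lower and 1 higher, where 8.75% and 3.81% of all genes were, FZD1, FZD7 and the higher INTU being added to the genes above.

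Of 14 tested cytoplasmic partners of cadherins, 1 of which (SCRIB) is also on the planar cell polarity list, none was called in the EZH2 Y641F line, by DESeq2 or the exact test either, though 3 had an unadjusted p under 0.05. In EZH2 A677G 2 were higher (14.3%, against 2.07% of all genes), HOMER1, a scaffold protein (log2 fold change 0.23, adjusted p = 0.00148), and CTNNA1, the alpha-catenin that links cadherins to actin (0.15, adjusted p = 0.00427), and 1 was without EZH2 A677G replicate 2, where CTNNA1 was not called. For the GOF mean against the LOF line, 1 was lower (HOMER2, 7.14%, against 8.75% of all genes) and 2 were higher (HOMER1 and DLG1, 14.3%, against 3.81%). These calls fell to 1 or fewer without EZH2 Y641F replicate 3, EZH2 A677G replicate 2 or any of the 3 EZH2 H689A/F667I replicates. The list medians were 0.04 and 0.03. In EZH2 H689A/F667I no gene of the 3 lists was called by the quasi-likelihood test, DESeq2 or the exact test, and 2 of the Hippo list, 2 of the polarity list and 1 of the partners had an unadjusted p under 0.05.

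**Figure D5:**
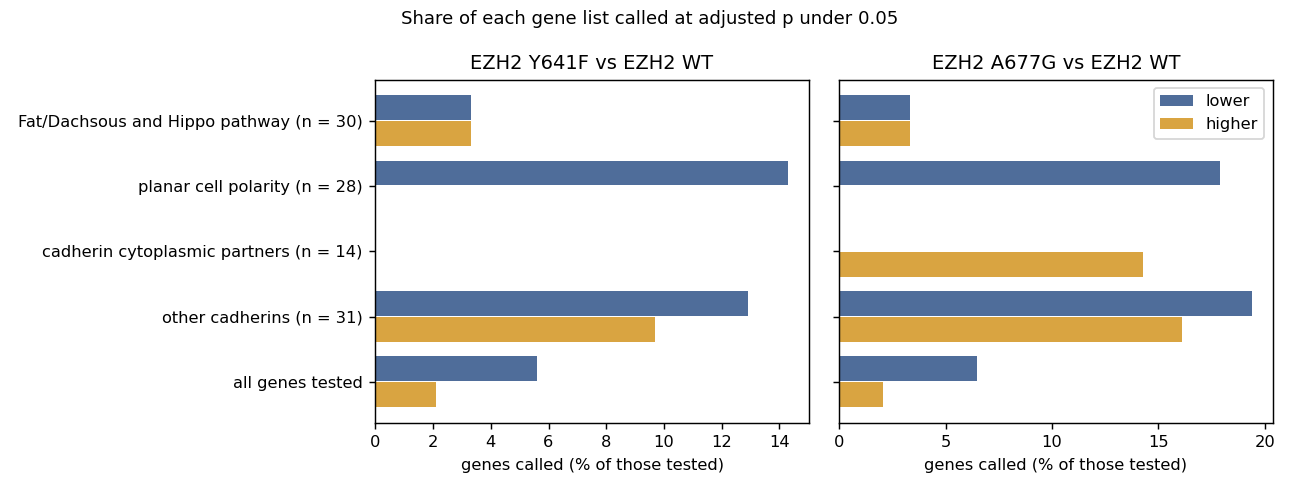
Percentage of the tested genes of each list called lower or higher at adjusted p under 0.05 (horizontal axes, each starting at 0) in the EZH2 Y641F line (left) and EZH2 A677G (right) against EZH2 WT, with all genes tested in the bottom pair of bars. Planar cell polarity genes have bars for lower genes alone by the quasi-likelihood test, at 14.3% and 17.9%, and the Fat/Dachsous and Hippo list is at 3.33% in either direction.

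The genes whose levels followed the called members most closely over the 12 samples were looked up among 12033 genes, as a description of samples that share their lines. RPS6KA2, a ribosomal S6 kinase (Pearson r = 0.963), and LGR5, a receptor for R-spondins (0.953), had patterns most like that of FAT3. RPS6KA2 had log2 fold changes of -0.55 in the EZH2 Y641F line, -0.34 in the EZH2 A677G line and 0.06 in the EZH2 H689A/F667I line. LGR5 had -1.14, -0.61 and -0.23 in the same order. GPBP1L1 (0.973) and ESYT2 (0.957), a tether of the endoplasmic reticulum to the plasma membrane, were most like FAT4, with changes of 0.09 or less in size. FAM96A (0.944) and PREX2 (0.940), an exchange factor for the GTPase Rac, were most like DCHS1. In the same order, FAM96A changed little, at -0.06, -0.12 and 0.02, and PREX2 was at -1.15, -1.29 and -0.11.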

How the data were processed

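Poly(A) RNA from 12 samples (TruSeq Stranded mRNA kit) was sequenced on an Illumina instrument. According to the study's methods and the submitters' processing notes, reads were trimmed (Trim Galore 0.6.5), aligned to GRCh38 (STAR 2.7.9a) and quantified (Salmon 1.2.0). The authors deposited raw whole-number counts per gene symbol, without normalization. The step from Salmon estimates to these counts and the filter behind the 14438 genes are not given in the sources used here.

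Counts were tested with edgeR 4.0.16 in R 4.3.3 (TMM scaling, quasi-likelihood test, 12 samples in one fit with a coefficient per line), and checked on simulated data. The study used edgeR 3.16's exact test, which is among the alternatives, as is DESeq2 1.42.0. The 175 genes at 0 in every replicate of a line were left out, which left 14263, and p-values were adjusted over all of them. Of each list, up to 4 called genes with the largest change in a GOF line against EZH2 WT were named with their values. Further list genes, such as DAAM2, were named because of their calls, and not every called gene was named. Positions, lengths and GC content came from GENCODE 44 on GRCh38, matched by name for 13272 genes and by older symbol for 809. Likeness was Pearson's r of log2 CPM over genes with a mean of at least 1. CPM rested on 32137700 to 44562413 counts a sample. Same-numbered samples of different lines did not deviate together (18 pairs, r from -0.104 to 0.132). The labels do not say what the numbers stand for, and the main fit did not pair samples by them. The genes and lists were chosen with earlier results of these data known.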

Additional observations from a re-analysis of the deposited data

Results flagged for a closer look

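FAT3 differed between the 2 GOF lines under the same contrast with EZH2 WT, by a log2 fold change of -0.34 for EZH2 Y641F against EZH2 A677G in a direct test of the difference. The effects of the GOF lines and of the LOF line relative to EZH2 WT also differed in a direct test, for FAT3 (-0.52), for FAT4 (0.44) and for DCHS1 (-0.84, the mean of both GOF lines against EZH2 H689A/F667I on the log2 scale). These comparisons share samples with those that chose the genes. Groups of 3 samples are too small to call a single sample far from the others.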

How the results depend on the processing

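No giant cadherin that was called changed direction under any alternative, and FAT3 and FAT4 kept their calls in each of them. In EZH2 A677G against EZH2 WT, 5 members in place of 3 were called with the length trend removed, with the exact test of edgeR, when the fit held the compared groups alone, and with the replicate block and length trend removed together, CELSR1 and CELSR2 being those added. Leaving out each sample gave 2 to 3 members in EZH2 Y641F, 3 to 4 in EZH2 A677G and 3 to 5 for the GOF mean against EZH2 H689A/F667I, where the 5 came without EZH2 Y641F replicate 2 and added FAT1 and CELSR1.

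Over all genes, the number called against EZH2 WT was 1095 in EZH2 Y641F (703 to 1232 leaving out each sample, with 703 without EZH2 WT replicate 2) and 1219 in EZH2 A677G (825 to 1457, and 1849 with the exact test). It was 43 in EZH2 H689A/F667I (11 to 65, 146 with the exact test, 86 with only the compared groups, and 169 with no gene left out), and 12 between the GOF lines (8 to 57, 19 with DESeq2, and 178 with no gene left out). The cause of these shifts was not tested. The exact test gave no value for the GOF mean, which is a contrast of 3 lines.

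With the replicate number as a block, the counts in the 5 comparisons were 1108, 1238, 40, 16 and 1808, against 1095, 1219, 43, 12 and 1792. The labels do not say whether same-numbered samples were handled together, and their expression showed no clear shared deviation. Only 3 of 12 samples had their highest mean correlation with samples of their own number in the other lines. Of the 18 same-numbered pairs, 1 exceeded 0.1. With the block, CELSR1 was called in EZH2 A677G (adjusted p = 0.0476) and for the GOF mean (adjusted p = 0.0459), and no other member call changed. Depth limits FAT2 (22 to 44 counts) and DCHS1 (56 to 172) most.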

Other observations

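Cadherins outside the giant families were called in both directions in the GOF lines. Of 31 tested, 4 were lower (12.9%, against 5.59% of all genes) and 3 higher (9.68%, against 2.09%) in the EZH2 Y641F line. In the EZH2 A677G line 6 were lower (19.4%, against 6.48%) and 5 higher (16.1%, against 2.07%), and 0 were called in the EZH2 H689A/F667I line by the quasi-likelihood test, DESeq2 or the exact test, with 3 at an unadjusted p under 0.05. The count in the EZH2 Y641F line was 11 without EZH2 Y641F replicate 1 and 4 without EZH2 Y641F replicate 2. PCDH17, a protocadherin of synapses, had 21.4 ± 0.932 CPM in the EZH2 WT line, 32.5 ± 1.58 in the EZH2 Y641F line (log2 fold change 0.61, adjusted p = 1.11e-07), 30.4 ± 1.34 in the EZH2 A677G line (0.51, adjusted p = 2.86e-06) and 21.8 ± 2.44 in the EZH2 H689A/F667I line. CDH7, a classical cadherin, fell by 0.94 (adjusted p = 0.00523) and 1.00 (adjusted p = 0.00248) on the log2 scale, and the photoreceptor cadherin CDHR1 by 0.69 (adjusted p = 0.0207) and 0.77 (adjusted p = 0.00874). CDH4, or R-cadherin, was at 21 to 61 counts and rose by 0.95 in the EZH2 A677G line (adjusted p = 0.0346), with 0.91 in the EZH2 Y641F line (adjusted p = 0.0510). The desmosomal genes DSC2 and DSC3 were lower in both GOF lines, and PCDH10 and CDH2, or N-cadherin, were higher in both, all named because of those calls.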
